A study of Mus musculus with 8 samples.

Results

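The genes described here encode proteins of the synaptic vesicle and of the active zone, the patch of presynaptic membrane where vesicles are released. They are 37 genes out of 55341 gene symbols in the count files, listed by symbol, with no measured value in the rule but with earlier results of these data known: the SNARE proteins and the factors that recycle them, complexins, synapsins, vesicle membrane proteins, the Rab3 proteins, and the scaffold proteins of the active zone. Synaptotagmins and the Munc13 family were left out of the list. All 37 had a row in each file, and all 37 passed the filter on low counts.

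RNA came from nuclei of GABAergic neurons, the inhibitory neurons of the cortex, of juvenile mice. A Cre-dependent reporter put a fluorescent protein into the nuclei of these neurons, and the nuclei were collected with a cell sorter. The PTU group (mice 9, 10, 11 and 12) was hypothyroid because the pregnant mothers were treated with propylthiouracil, an inhibitor of thyroid hormone synthesis. The PTU+TH group (mice 13, 14, 15 and 16) was hypothyroid in the same way and had thyroid hormone injected into the peritoneum 24 h before the brain was taken. All 8 mice thus shared the propylthiouracil treatment of the mother and the reporter, and only the PTU+TH mice were given hormone. No group without propylthiouracil was analysed here. The labels give neither the Cre driver, nor an exact age, nor the sex or litter of a mouse. Each library is 1 mouse.

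A nerve terminal stores transmitter in vesicles that carry membrane proteins such as synaptophysin and SV2. The vesicles are brought to the active zone by Rab3 and by scaffold proteins such as RIM, bassoon and liprin-alpha. Fusion is driven by the SNARE proteins syntaxin, SNAP-25 and synaptobrevin, which complexin holds ready and NSF with its SNAP partners takes apart again. Fast-spiking inhibitory neurons depend on this machinery for quick and precise release, and many of its genes exist as sets of paralogs used in different proportions by different neurons.

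Only 1 of the 37 genes, Rims3, differed between the groups at an adjusted p under 0.05, and it fell. Rims3 encodes RIM3, a short RIM protein that lacks most domains of RIM1 and RIM2. No member was called higher. The share of members called, 2.7%, stood beside 2.12% of the 17355 genes tested, so it was near the background. Called lower were 0.634% of all genes tested and 1.49% were called higher. Before adjustment, 3 members (8.11%) had p under 0.05, Rims3, Rab3d and Doc2a, all lower in PTU+TH, against 12.8% of all genes tested, 6.17% in the lower direction. The groups did not overlap in 1 member (2.7%), again Rims3, against 8.71% of all genes tested. With DESeq2, which called 4.63% of its genes, and with limma voom, which called 2.05%, Rims3 was again the only member called. The edgeR fit called 0.835% of genes at an adjusted p under 0.01 and 3.46% under 0.1, and 4.03% of genes had groups without overlap and lower in PTU+TH. Under other settings, the share of genes called was 2.12% and 2.18% with other size factors (RLE and upper quartile), 1.48% with library totals, 1.52% without a filter and 2.51% with a stricter one. It was 5.5%, 3.7% and 3.24% with a surrogate variable, the sets of mouse numbers and the excitatory marker mean as covariates, while the 6 libraries with a Y-linked signal gave 0.318%. Leaving out PTU mouse 9, 10, 11 or 12 gave 2.84%, 1.41%, 1.66% and 1.32%, and leaving out PTU+TH mouse 13, 14, 15 or 16 gave 1.35%, 1.28%, 1.03% and 1.18%.

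The median log2 fold change was -0.008 over the members and -0.007 over all genes tested, with 18 members above 0 and 19 below.

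The data limit how large a change could have gone unseen. The 95% interval of the fold change lay within a factor of 1.5 in either direction for 30 of the 37 members (81.1%) and within a factor of 2 for 36 (97.3%). Over all genes tested these shares were 52.9% and 77.5%. The median standard error (SE) of the log2 fold change was 0.142 for members and 0.167 for all genes tested. Outside the 1.5-fold limits were the intervals of Rims3, Rab3d, Doc2a, Vamp2, Cplx1, Syngr1 and Sv2b. Only that of Sv2b passed a factor of 2.

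**Figure D1:**
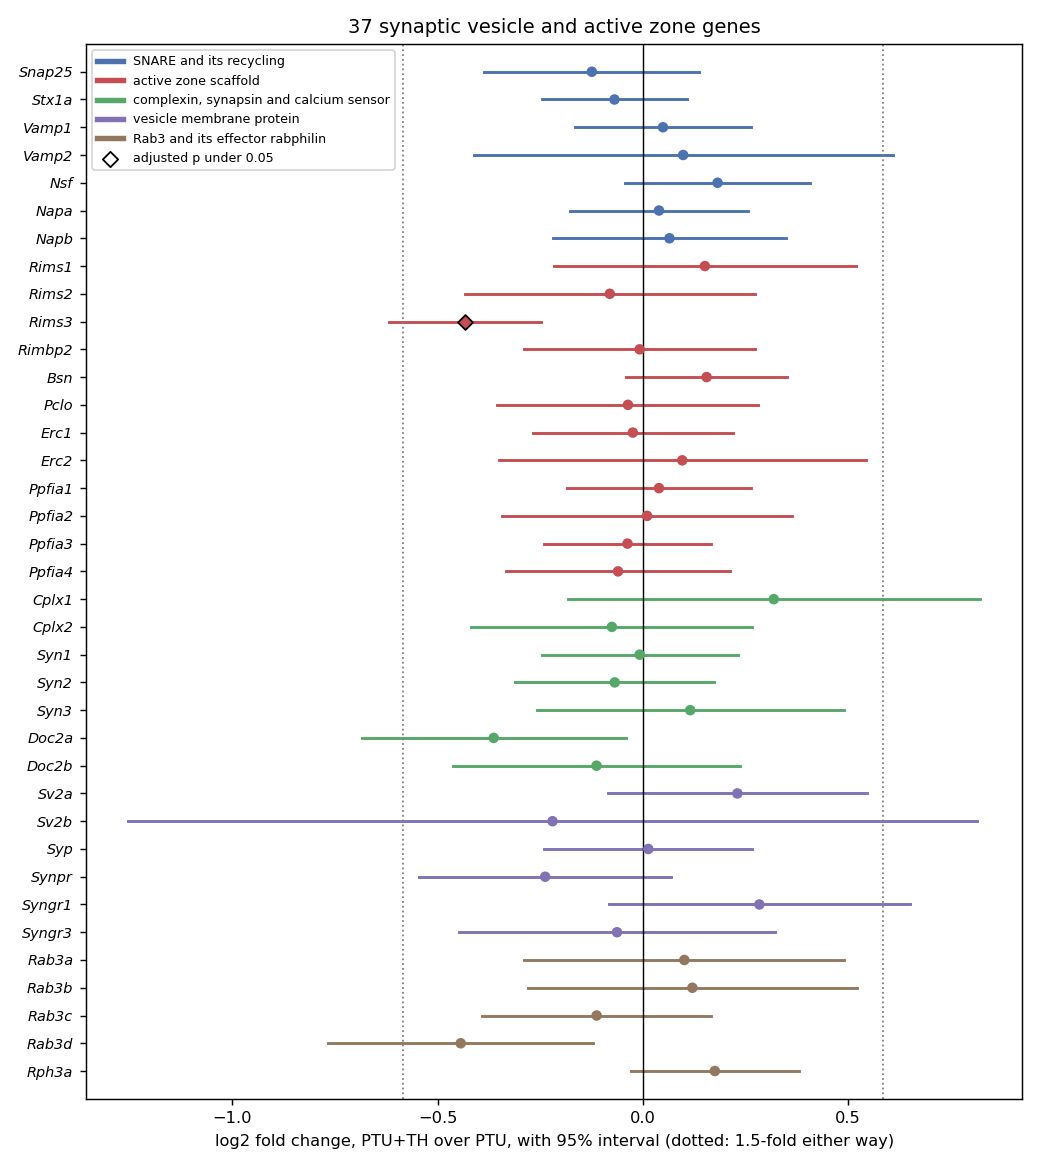
Log2 fold change, PTU+TH over PTU, of each of the 37 genes (points) with its 95% interval (lines), coloured by role, from 4 libraries per group. The diamond is Rims3, the only member with an adjusted p under 0.05, and the interval of Sv2b is the widest.

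The sort and the hormone were checked with genes outside the list. Library totals ranged from 21762810 to 29084071 counts, and members had between 254 and 29327 counts in a library. The hormone-responsive genes Hr and Klf9 were higher in all 4 PTU+TH libraries, with log2 fold changes of 3.88 (edgeR adjusted p = 6.59e-07) and 1.37 (edgeR adjusted p = 0.00223). The pan-GABAergic marker list summed to 2450 to 2880 CPM (counts scaled to a common library size) in PTU and to 2290 to 2490 CPM in PTU+TH. Of its 5 tested genes 0 were called, 3 had a log2 fold change below 0, 1 had an unadjusted p under 0.05 and was lower, and 1 (20%) had groups that did not overlap. The median log2 fold change of the list was -0.136. Gad1 and Gad2, the genes of the GABA-making enzymes, lay between 389.4 and 546.4 and between 392.4 and 481.3 CPM across the 8 libraries. Y-linked genes had 0 counts in PTU+TH mice 15 and 16 and counts in the other 6 mice, so sex differed within the PTU+TH group and between the groups. The fit to those 6 libraries is given beside the called genes. The summed CPM of marker lists for other cells overlapped between the groups for excitatory neurons (438 to 524 in PTU, 437 to 498 in PTU+TH), astrocytes (125 to 241 and 127 to 366), oligodendrocytes (96.2 to 123 and 94.2 to 193), their precursors (8.27 to 24.0 and 10.4 to 33.0), microglia (49.9 to 69.4 and 59.5 to 77.1) and endothelium (33.6 to 158 and 36.2 to 117). None of the tested genes of these lists was called (edgeR; 1 oligodendrocyte and 1 microglia gene had an unadjusted p under 0.05, both higher). All 5 tested microglia genes and 5 of 6 oligodendrocyte genes had a log2 fold change above 0, with list medians of 0.629 and 0.471, and their part in the results was not tested. The markers Gfap (astrocytes), P2ry12 (microglia), Dlx1 (GABAergic neurons) and Cox6a2 (PV class) were listed at 0 in all 8 libraries, but none of their bases is free of other annotated genes, so these zeros say nothing of their expression. In the lists for interneuron classes, 2 of 5 tested genes of the PV list and 1 of 6 of the LAMP5 list were called higher, and 1 of 7 of the SST list and 1 of 7 of the VIP and CCK list were called lower. Over all genes tested 2.12% were called. The median log2 fold change was 0.501 in the PV list, -0.092 in the LAMP5 list, -0.175 in the SST list and -0.281 in the VIP and CCK list. An unadjusted p under 0.05 was found for 60%, 33.3%, 42.9% and 42.9% of their tested genes, against 12.8% of all genes. Their part in the results was not tested. A shift in the share of a class and a change of RNA per nucleus cannot be told apart in these bulk libraries.

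Rims3 lies at chr4:120854816-120896579 on the plus strand of mouse build GRCm38, and no other annotated gene overlaps it. Its level was 88.4, 74.0, 86.4 and 80.2 CPM in PTU mice 9, 10, 11 and 12. In PTU+TH mice 13, 14, 15 and 16 it was 58.7, 58.8, 65.0 and 61.4 CPM. Every PTU library was above every PTU+TH library. The mean went from 82.3 ± 6.55 down to 60.9 ± 2.96 CPM (SD, n = 4 each), a log2 fold change of -0.43 with an SE of 0.09 (edgeR quasi-likelihood test, adjusted p = 0.0186). That is a difference of -25.9%, with a 95% interval of the log2 fold change from -0.62 to -0.25. Without PTU mouse 11 the edgeR adjusted p was 0.0519, and without PTU+TH mouse 13, 14 or 16 it was 0.0676, 0.0719 or 0.0634. In the 6 libraries with Y-linked counts it was 0.13, with a log2 fold change of -0.48. The adjusted p was 0.000642 with DESeq2 and 0.0249 with limma voom.

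**Figure D2:**
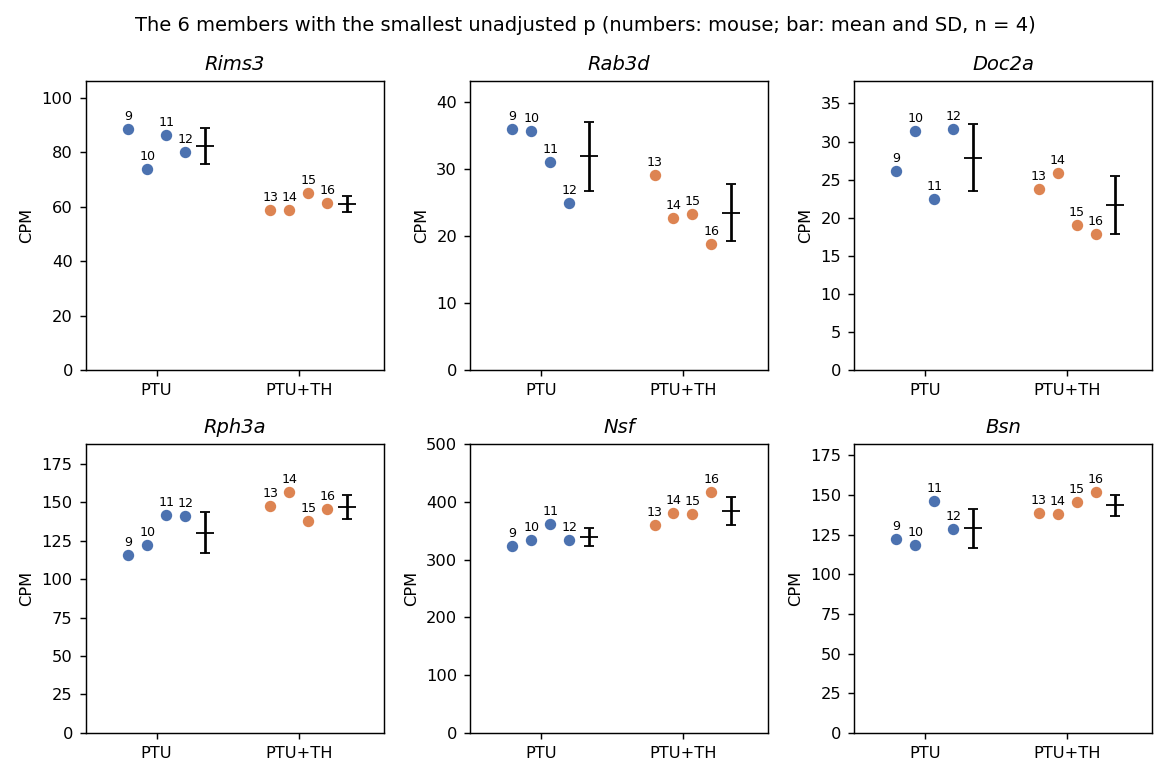
CPM of the 6 members with the smallest unadjusted p, 1 point per library labelled by mouse number, with the group mean and SD (n = 4). In Rims3 the PTU points (74.0 to 88.4 CPM) lie above all PTU+TH points (58.7 to 65.0 CPM), while in the other 5 the groups overlap.

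The promoter of Rims3 is shown with that of Ppfibp1, the gene called in the wider presynaptic list below, because these were the called genes of the machinery. The sequences are the 250 bases before the RefSeq start of each gene, build GRCm38.p6, written 5′ to 3′ on the plus strand, at chr4:120854549-120854798 for Rims3 and chr6:146888244-146888493 for Ppfibp1. These starts differ from those of the GENCODE M21 annotation that gave the gene positions, 120854816 for Rims3 and 146888487 for Ppfibp1. The Rims3 window ends before its GENCODE start, and the Ppfibp1 window runs past its own. Capitals mark GC boxes, the letters GGGCGG on either strand, which are the core of sites for Sp1-type factors.
Rims3: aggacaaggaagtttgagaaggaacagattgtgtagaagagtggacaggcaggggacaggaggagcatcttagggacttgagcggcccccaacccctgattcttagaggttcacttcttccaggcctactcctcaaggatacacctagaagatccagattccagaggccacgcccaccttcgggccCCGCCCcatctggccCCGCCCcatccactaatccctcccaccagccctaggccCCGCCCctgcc
Ppfibp1: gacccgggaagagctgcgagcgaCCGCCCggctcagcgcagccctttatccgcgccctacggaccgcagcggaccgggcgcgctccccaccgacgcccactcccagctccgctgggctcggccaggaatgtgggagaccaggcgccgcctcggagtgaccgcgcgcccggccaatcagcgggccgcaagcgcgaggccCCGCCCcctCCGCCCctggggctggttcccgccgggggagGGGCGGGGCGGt

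The Rims3 window held 3 GC boxes and the Ppfibp1 window 5, of which the last 2 overlap by a base. The last box of the Ppfibp1 window lies within the gene body as annotated in GENCODE M21. Of 32851 windows of this length in the RefSeq promoter table, 32.7% held at least 1 and 4.09% held 4 or more. The windows differ in base composition, with 59.6% G or C in that of Rims3, 78.0% in that of Ppfibp1 and a median of 52.4% over all windows, and a motif of only G and C occurs more often by composition alone where that share is higher. These shares were not matched for composition. The core motif of nuclear receptors, AGGTCA on either strand, was in neither window and in 14% of all windows. A direct repeat of it with 4 bases between, the letters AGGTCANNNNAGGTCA that thyroid hormone receptors are known to bind, was in 0.0152% of all windows. For 30 of the 37 members the table held 39 windows, of which 22 (56.4%) had a GC box and 2 (5.13%), those of Erc2 and Syngr1, had this core motif. None held the direct repeat. A match or its lack describes these letters in this window only.

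Among the other active zone scaffold genes, 11 were not called and 0 of them had an unadjusted p under 0.05 (edgeR; 0 were called with DESeq2 or limma voom). Rims1 and Rims2 encode the large RIM proteins that tie vesicles and calcium channels to the release site. Rims1 was at 729, 858, 1149 and 1074 CPM in the 4 PTU mice, against 995, 1008, 1017 and 1211 CPM in the PTU+TH mice. Rims2 was at 459, 515, 751 and 723 CPM in the 4 PTU mice, against 568, 585, 563 and 600 CPM in the PTU+TH mice. In both genes PTU mice 9 and 10 were low and mice 11 and 12 high, and all PTU+TH values of Rims2 lay between them. Their log2 fold changes were 0.15 and -0.08, with 95% intervals from -0.22 to 0.52 and from -0.43 to 0.27.

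Bsn and Pclo encode bassoon and piccolo, the giant scaffolds of the active zone. Bsn averaged 128.9 ± 12.3 CPM over the PTU mice and 143.5 ± 6.53 CPM over the PTU+TH mice, and Pclo 491.6 ± 94.5 and 479.3 ± 40.3 CPM (SD, n = 4 each), with log2 fold changes of 0.15 and -0.04. Erc1 and Erc2, which encode the ELKS scaffolds that bind RIM, had log2 fold changes of -0.02 and 0.10. Erc2 spread from 641 CPM in mouse 9 to 1254 CPM in mouse 11 within the PTU group. Rimbp2, whose protein links RIM to calcium channels, had a log2 fold change of -0.01 with a 95% interval from -0.29 to 0.27.

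The liprins-alpha are organisers of the active zone encoded by Ppfia1 to Ppfia4. None of these 4 genes was called, and their log2 fold changes were 0.04, 0.01, -0.04 and -0.06 in the order of their numbers (edgeR adjusted p from 0.923 to 0.992). Their 95% intervals reached from -0.34 to 0.36 at the widest, for Ppfia2. The gene of their relative liprin-beta 1, Ppfibp1 (chr6:146888487-147032025), is not a member but stood out in the wider list. It was at 98.0, 119.9, 120.9 and 114.7 CPM in the 4 PTU mice, against 80.6, 83.0, 64.9 and 71.2 CPM in the PTU+TH mice, so the groups did not overlap. The mean went from 113.4 ± 10.6 down to 74.9 ± 8.39 CPM (SD, n = 4 each). This gave a log2 fold change of -0.60 with an SE of 0.10, and the gene fell by the edgeR quasi-likelihood test (adjusted p = 0.00793). In the 6 libraries with Y-linked counts its edgeR adjusted p was 0.173 with a log2 fold change of -0.47. Ppfibp1 was called under 18 of 19 alternatives, that fit being the exception.

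The core SNARE genes and their recycling factors had 0 called members of 7 and 0 with an unadjusted p under 0.05 (edgeR; 0 with DESeq2 or limma voom). Their log2 fold changes lay between -0.12 and 0.18. Snap25, the gene of the plasma membrane SNARE SNAP-25, was at 679, 590, 674 and 658 CPM in the 4 PTU mice, against 550, 581, 632 and 624 CPM in the PTU+TH mice. Its groups overlapped, and its log2 fold change was -0.12 with a 95% interval from -0.39 to 0.14. Stx1a, the gene of syntaxin 1A, was among the least variable members, with a coefficient of variation of 4.03% in PTU and 2.99% in PTU+TH and a log2 fold change of -0.07.

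Vamp1 and Vamp2 encode the vesicle SNAREs synaptobrevin 1 and 2. Vamp2 was at 369, 220, 206 and 154 CPM in the 4 PTU mice, against 201, 269, 296 and 250 CPM in the PTU+TH mice. All 4 PTU+TH values lay inside the PTU range, whose ends were mice 9 and 12. Vamp1, of which all values lay between 62.9 and 80.5 CPM, had a log2 fold change of 0.05. Nsf, the ATPase that takes spent SNARE complexes apart, was at 324, 335, 362 and 335 CPM in the 4 PTU mice, against 360, 381, 379 and 417 CPM in the PTU+TH mice. Only mouse 13 lay within the PTU range, and the log2 fold change of 0.18 was not called (edgeR adjusted p = 0.533). Napa and Napb, the genes of the alpha and beta SNAP adaptors of NSF, had log2 fold changes of 0.04 and 0.06.

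Complexins clamp and promote fusion, synapsins tether vesicles into the reserve pool, and Doc2 proteins are calcium sensors with high affinity. Of these 7 genes, 0 were called and 1, Doc2a, had an unadjusted p under 0.05 (edgeR; 0 called with DESeq2 or limma voom). Doc2a was at 26.1, 31.4, 22.5 and 31.6 CPM in the 4 PTU mice, against 23.8, 25.9, 19.1 and 17.9 CPM in the PTU+TH mice. The groups overlapped, and its log2 fold change was -0.36 with an SE of 0.15 (edgeR adjusted p = 0.306). Of its exonic bases, 52.9% are free of other genes, the rest being shared with Ino80e on the opposite strand, so its counts are uncertain. Cplx1 was at 263, 146, 167 and 123 CPM in the 4 PTU mice, against 157, 217, 260 and 238 CPM in the PTU+TH mice, with all PTU+TH values inside the PTU range. Its log2 fold change was 0.32 with a 95% interval from -0.18 to 0.82. Cplx2, Syn1, Syn2, Syn3 and Doc2b had log2 fold changes between -0.11 and 0.12, and of these Syn1 was at -0.01 with an interval from -0.25 to 0.23.

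The vesicle membrane proteins had 0 called members of 6 and 0 with an unadjusted p under 0.05 (edgeR; 0 with DESeq2 or limma voom). Syngr1 encodes synaptogyrin 1 and was at 218, 148, 142 and 118 CPM in the 4 PTU mice, against 160, 185, 221 and 196 CPM in the PTU+TH mice. PTU mouse 9 lay among the PTU+TH values and the other 3 PTU mice below all of them. With all libraries the log2 fold change of 0.28 was not called (edgeR adjusted p = 0.561), and without mouse 9 it was 0.49 with an edgeR adjusted p of 0.0431. Sv2a, the gene of SV2A, a vesicle protein that is the binding site of the antiepileptic drug levetiracetam, had a log2 fold change of 0.23 and Syp, the gene of synaptophysin, one of 0.01. Synpr, the gene of synaptoporin, a relative of synaptophysin, averaged 527.8 ± 98.2 CPM over the PTU mice and 447.6 ± 35.4 CPM over the PTU+TH mice (SD, n = 4 each), with PTU mouse 11 highest at 671 CPM. Its log2 fold change was -0.24 (edgeR adjusted p = 0.56).

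Sv2b had the widest spread of the members. It encodes SV2B, which many excitatory neurons use. Its level was 42.1, 36.96, 21.0 and 11.1 CPM in the 4 PTU mice, against 30.4, 13.0, 35.1 and 17.3 CPM in the PTU+TH mice, with coefficients of variation of 51.4% and 43.8%. The highest and the lowest library were both in the PTU group, and the log2 fold change was -0.22 with a 95% interval from -1.25 to 0.81. The mean log2 level of 10 excitatory neuron markers followed a similar order over the libraries, with 4.02, 3.70, 3.40 and 2.95 in PTU and 3.70, 3.07, 4.02 and 3.42 in PTU+TH, all of log2(CPM + 0.5). Over the 8 libraries Pearson's r between this mean and the log2 level of Sv2b was 0.961 (exact permutation p = 0.000496, adjusted over the 37 members 0.0184). Spearman's rho was 0.857 (exact permutation p = 0.0107, adjusted 0.142). Without PTU mouse 12 and PTU+TH mouse 14, the farthest from the median of the marker mean, r was 0.885 (exact permutation p = 0.0444). Within each group the 4 libraries had the same order in both measures. This relation was examined after the values were seen. By Pearson's r no other member passed the adjustment, and by Spearman's rho no member did, Sv2b included. Other members followed the marker mean in the opposite direction: rho was -0.881 for Ppfia4 and -0.833 for Rimbp2 and for Ppfia3, each with an adjusted permutation p of 0.142. Without the same 2 libraries r was -0.969 for Erc1, -0.917 for Doc2b and -0.889 for Ppfia4, each larger in size than that of Sv2b. The relation is thus not shown to be particular to Sv2b. All 10 markers were detected, and 0 of them differed between the groups (edgeR; 0 with an unadjusted p under 0.05). Their summed level did not follow that order, since Camk2a and Cux2 made up most of it and were lowest in mouse 9, at 188 and 137 CPM. With the marker mean as a covariate the log2 fold change of Sv2b was -0.23.

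**Figure D3:**
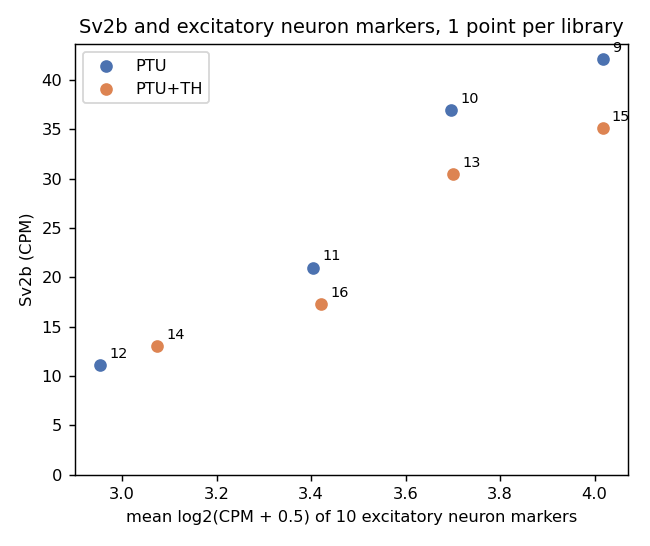
Sv2b in CPM (vertical) against the mean log2(CPM + 0.5) of 10 excitatory neuron markers (horizontal), 1 point per library labelled by mouse number. The lowest points are PTU mouse 12 and PTU+TH mouse 14, and points of both groups lie along the same rise.

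Rab3 proteins are the small GTPases of synaptic vesicles, and rabphilin is one of their effectors. Of these 5 genes, 0 were called and 1, Rab3d, had an unadjusted p under 0.05 (edgeR; 0 called with DESeq2 or limma voom). Rab3d was at 35.99, 35.8, 31.1 and 25.0 CPM in the 4 PTU mice, against 29.1, 22.7, 23.4 and 18.8 CPM in the PTU+TH mice. The groups overlapped through PTU mouse 12 and PTU+TH mouse 13. Its log2 fold change of -0.44 was as large as that of Rims3, but its SE was 0.15 (edgeR adjusted p = 0.191). With a surrogate variable as a covariate its edgeR adjusted p was 0.0282. Rab3a, Rab3b and Rab3c had log2 fold changes of 0.10, 0.12 and -0.11. Rph3a, the gene of rabphilin 3A, averaged 130.1 ± 13.3 CPM over the PTU mice and 146.8 ± 7.78 CPM over the PTU+TH mice (SD, n = 4 each), a log2 fold change of 0.18 that was not called (edgeR adjusted p = 0.497).

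Ratios of related members within a library do not depend on how libraries are scaled, and 17 such pairs were compared. The log2 ratio of Syngr1 to Syngr3 was -0.42, -0.35, -0.36 and -0.36 in PTU and -0.05, -0.04, 0.06 and -0.10 in PTU+TH. The PTU libraries lay below every PTU+TH library, with means of -0.37 ± 0.04 and -0.03 ± 0.07 (SD, n = 4 each). The difference of 0.34 on the log2 scale had an exact permutation p of 0.0286, two-sided, the smallest that 70 arrangements allow, and 0.162 after adjustment over the 17 pairs. Within the PTU group mouse 9 was the lowest, at -0.42, apart from the other 3 at -0.36 to -0.35.

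The ratio of Rims1 to Rims2 separated the groups too, with a log2 ratio of 0.67, 0.73, 0.61 and 0.57 in PTU and 0.81, 0.79, 0.85 and 1.01 in PTU+TH. The difference of 0.22 had the same exact permutation p of 0.0286 and adjusted p of 0.162. The third pair without overlap was Rims3 to Rims1, with a difference of -0.60 and the same p-values, and it includes the called gene. Cplx1 to Cplx2, with a mean log2 ratio of 1.51 ± 0.24 in PTU and 1.92 ± 0.15 in PTU+TH (SD, n = 4 each), overlapped between the groups through PTU mouse 9 and PTU+TH mouse 13 (exact permutation p = 0.0571, adjusted 0.243). Of the other 13 pairs, all of which overlapped, the smallest exact permutation p was 0.143, for Bsn to Pclo, and that of Vamp1 to Vamp2 was 0.629. No pair passed the adjustment, which with 4 libraries per group could be passed only if most pairs stood at the smallest p.

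**Figure D4:**
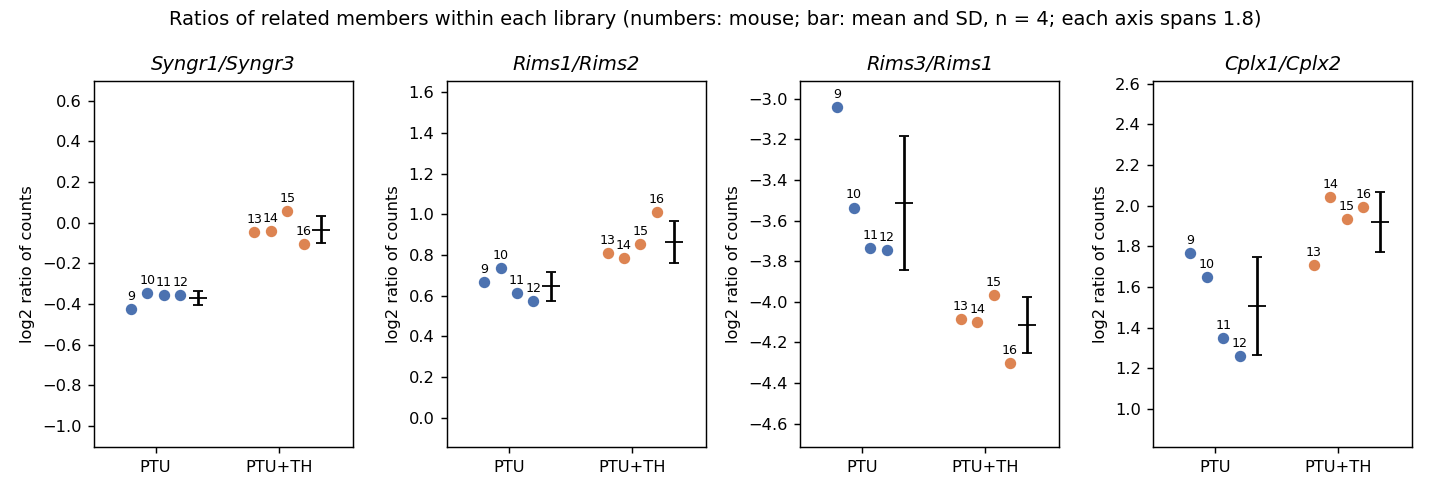
Log2 ratio of the counts of 2 related members in each library, 1 point per library labelled by mouse number, with the group mean and SD (n = 4). In Syngr1/Syngr3 the PTU points lie from -0.42 to -0.35 and the PTU+TH points from -0.10 to 0.06, and only in Cplx1/Cplx2 do the groups overlap.

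Members differed more between mice of the PTU group than between mice of the PTU+TH group. The median coefficient of variation was 17.6% in PTU and 9.7% in PTU+TH, and 29 of the 37 members (78.4%) varied more in PTU. Over all genes tested the medians were 17.1% and 13.3%, and 62.1% varied more in PTU. Examples were Rims2, with 24% in PTU and 2.9% in PTU+TH, and Vamp2, with 39% and 15.7%.

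In the PTU group, whether a member lay above or below its mean tended to follow the length of the gene body. Sv2b (194.4 kb) went against this, at 0.835 in mouse 9 and -1.04 in mouse 12 on the log2 scale. The size of the spread was not compared with length. The 18 shorter members span 3.9 to 41.8 kb and include Vamp2, Rab3a, Syngr3 and Cplx1, and the 18 longer members span 64.3 to 856.1 kb and include Rims1, Rims2, Pclo and Erc2. In PTU mouse 9 the median of the shorter members was 0.31 above and that of the longer members 0.25 below their means over the 8 libraries, on the log2 scale. In mouse 11 the shorter members were at -0.09 and the longer at 0.21, and in mouse 12 at -0.17 and 0.08. Mouse 9 was the highest PTU library in 13 of the 18 shorter members and the lowest in 11 of the 18 longer ones, while mouse 11 was the highest in 14 of the longer ones. In PTU+TH the difference of longer minus shorter members stayed between -0.05 and 0.09 on the log2 scale, against -0.56 to 0.30 in PTU.

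Across the 37 members, Spearman's rho between the length of a gene and its deviation was -0.74 in mouse 9, -0.28 in mouse 10, 0.64 in mouse 11 and 0.53 in mouse 12. In the PTU+TH libraries it lay between -0.21 and 0.32. Over all 17355 genes tested it was -0.42, -0.11, 0.33 and 0.26 in PTU and between -0.13 and 0.25 in PTU+TH, so the pattern was not limited to the members. These values run across genes, which share their library and are not independent, and are given as a description. The log2 fold change between the groups had a rho of 0.04 with length over the members.

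**Figure D5:**
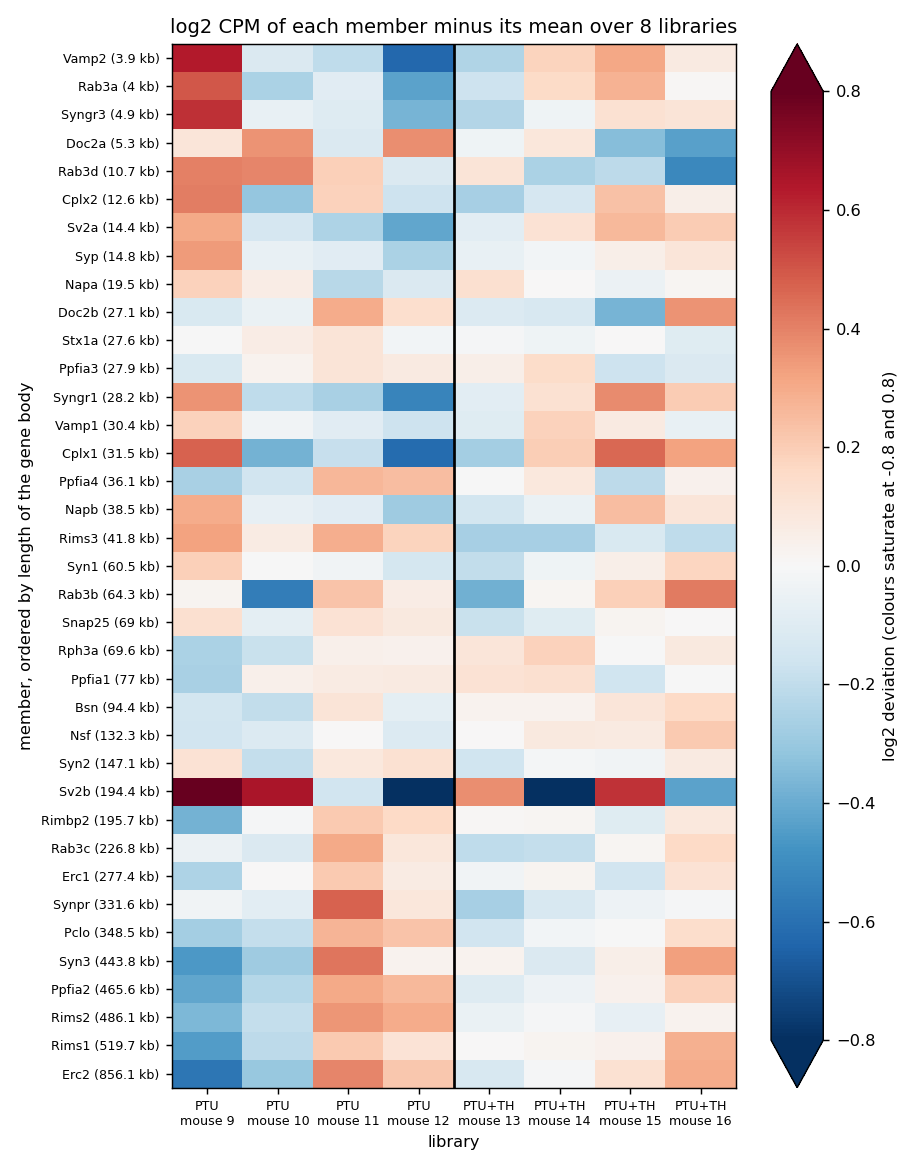
Log2 deviation of each member (rows, shortest gene body at the top) from its mean over the 8 libraries (columns), red above and blue below that mean. PTU mouse 9 is mostly red among short genes and blue among long genes, mice 11 and 12 run the other way among long genes, and Sv2b departs from its neighbours.

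Of the wider presynaptic list, 46 genes of vesicle fusion, docking and endocytosis that are not members, 44 had a row and 42 passed the filter. The test called 0 of them higher and 1, Ppfibp1, lower (2.38%, against 2.12% of all genes tested), with a median log2 fold change of 0.015. Ppfibp2, the gene of liprin-beta 2, was at 14.0, 14.8, 14.2 and 13.1 CPM in the 4 PTU mice, against 11.4, 8.70, 8.40 and 10.6 CPM in the PTU+TH mice. Its groups did not overlap, but its log2 fold change of -0.52 was not called (edgeR adjusted p = 0.0868; DESeq2 adjusted p = 0.0125; 0.0347 in edgeR with a surrogate variable). Of its 19 alternatives only these 2 called Ppfibp2, and its adjusted p ran from 0.0125 to 0.443. Amph encodes amphiphysin, which acts in vesicle endocytosis, and was at 290, 282, 348 and 341 CPM in the 4 PTU mice, against 399, 374, 390 and 443 CPM in the PTU+TH mice. Every PTU+TH library was above every PTU library, and the log2 fold change was 0.35 (edgeR adjusted p = 0.18; DESeq2 adjusted p = 0.0329). With the sets of mouse numbers as a term Amph was called (log2 fold change 0.35, edgeR adjusted p = 0.0375), as it was with a surrogate variable (0.39, edgeR adjusted p = 0.00839). The labels do not give these sets as a grouping of the mice. Over its 19 alternatives the adjusted p of Amph ran from 0.00839 to 0.636. These last 2 genes were chosen after their values were seen. In all, 5 of the 42 (11.9%) had groups that did not overlap, against 8.71% of all genes tested. Vamp3 and Syngr2 lie inside other genes and were listed at 0, which says nothing of their expression.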

How the data were processed

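RNA was measured in 8 libraries, 4 per group, each from 1 numbered mouse, so replicates are mice. Per the labels' protocols, cDNA was made with SMART-Seq v4 and libraries with Nextera XT, and reads were single-end. The values deposited are raw read counts, 1 row per gene symbol. Bowtie2 2.5.3 and the builds mm10 and GRCm38 are named in the submitters' processing notes. The counting program, annotation, use of strand and treatment of introns are not given in the sources used here. The symbols equal the 55341 symbols of GENCODE M21 (GRCm38), which gave the positions. Of the members, 5 have under 80% of their exonic bases free of other genes (Doc2a, Syn2, Erc1, Syp and Ppfia2), and reads of overlapping or antisense genes cannot be told apart.

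The test was that of edgeR 4.0.16 under R 4.3.3 (filterByExpr, TMM scaling, robust quasi-likelihood test, group as the only term), two-sided, with Benjamini-Hochberg adjustment over the 17355 genes kept. Called means an adjusted p under 0.05. CPM are counts scaled by library total and TMM factor and depend on gene length, so levels were not compared between genes. Log2 fold changes compare PTU+TH with PTU as the base, and their 95% intervals come from the SE and the test's degrees of freedom. Ratios used counts plus 0.5. Within groups, pairs of libraries differed by more than sampling noise (chi-square per degree of freedom 8.38 to 72.6).

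On simulated counts for PTU+TH against PTU over 17355 genes, 200 genes were given a known change, with a separate run for each size, and 26.5% were recovered at a log2 fold of 0.58 and 60.5% at 1, with 4 and 10 false calls. Alternatives were other scalings, DESeq2 1.42.0, limma voom 3.58.1, other filters and thresholds, covariates (a surrogate variable from sva 3.50.0, 2 sets of mouse numbers, 9, 10, 13 and 14 against 11, 12, 15 and 16, excitatory markers), the 6 libraries with Y-linked counts and leaving out each library. The labels do not give the sets of mouse numbers as a grouping. The members and lists were chosen with earlier results of these data known. By the rule set for named genes, members that were called or whose groups did not overlap are given with the value in every library, the other members by range and count with examples by role, and called genes of the wider list by name. The examples given with every value were chosen after their values were seen.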

Additional observations from a re-analysis of the deposited data

Results flagged for a closer look

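In 4 of 114 sets of 4 values searched, 1 library stood apart from the other 3 by Dixon's criterion for 4 values, and chance gives about 5% of sets, or 5.7. The sets were each member, Ppfibp1, Ppfibp2, Amph and each of the 17 log2 ratios, in each group. Rims1 was at 1210 CPM in PTU+TH mouse 16 and between 995 and 1020 CPM in the other 3 PTU+TH mice. Syn2 was at 302 CPM in PTU mouse 10 and between 367 and 375 CPM in the other 3 PTU mice. Ppfia1 was at 124 CPM in PTU mouse 9 and between 152 and 155 CPM in the other 3 PTU mice. The log2 ratio of Syngr1 to Syngr3 was -0.423 in PTU mouse 9 and between -0.358 and -0.348 in the other 3 PTU mice, and it was below all PTU+TH values in all 4.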

How the results depend on the processing

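Over all genes tested, 368 genes were called, 258 higher and 110 lower. The count was 756 with DESeq2 (464 higher, 292 lower), 955 with a surrogate variable (646 and 309), 642 with the sets of mouse numbers (428 and 214), 562 with the excitatory marker mean (379 and 183), 58 from the 6 libraries with a Y-linked signal (52 and 6), 145 at an adjusted p under 0.01 and 601 under 0.1. Leaving out 1 library gave 182 (without PTU+TH mouse 15) to 499 (without PTU mouse 9). The number of members called, 1, became 2 with a surrogate variable (Rims3 and Rab3d), where 5.5% of all genes were called. It was 0 with library totals as the scaling (1.48% of all genes), at an adjusted p under 0.01 (0.835%) and with those 6 libraries (0.318%). Leaving out 1 library gave 0 to 2 members: 0 without PTU mouse 11 or PTU+TH mouse 13, 14 or 16, and 2 without PTU mouse 9. Of the 42 tested genes of the wider list, 3 were called with DESeq2, where 4.63% of all genes were called. With a surrogate variable 4 were called (5.5% of all genes) and with the sets of mouse numbers 2 (3.7%). At an adjusted p under 0.1 the count was 2 (3.46% of all genes), and in the 6 libraries with a Y-linked signal 0 (0.318%). Rims3 was called under 13 of 19 alternatives, with a log2 fold change from -0.4849 to -0.3904. With library totals as the scaling its edgeR adjusted p was 0.0512.

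No member was called in the opposite direction, and the changes of sign were in uncalled values. Using the 6 libraries with a Y-linked signal, the log2 fold changes were Vamp2 -0.0106, Rimbp2 0.002, Syn3 -0.0065, Syp -0.0417, Rab3b -0.1378, Erc2 -0.0499, Ppfia2 -0.0825, Ppfia3 0.0793, Ppfia4 0.0019 and Napb -0.0777, and the log2 ratio differences Vamp1/Vamp2 0.0243, Syn1/Syn2 -0.0042, Napa/Napb 0.1518, Doc2a/Doc2b 0.034, Ppfia2/Ppfia3 -0.1307 and Ppfia4/Ppfia2 0.0699. With a surrogate variable they were Rims2 0.0233, Rimbp2 0.0566, Syp -0.0141, Pclo 0.0412, Erc1 0.019 and Ppfia4 0.0158. With upper-quartile scaling they were Rimbp2 0.0036 and Syn1 0.0063, and with library totals Syp -0.0234. Rimbp2 was at 0.0035 with the sets of mouse numbers and at 0.0166 with the excitatory marker mean. Over the fits without 1 library, log2 fold changes that changed sign ranged for Vamp1 from -0.007 to 0.1303, Vamp2 from -0.0615 to 0.399, Rims2 from -0.1906 to 0.0334, Rimbp2 from -0.1132 to 0.0647, Cplx2 from -0.1773 to 0.073, Syn1 from -0.0693 to 0.0623, Sv2b from -0.4823 to 0.0541, Syp from -0.0637 to 0.1528, Syngr3 from -0.1816 to 0.1705, Rab3a from -0.0122 to 0.3347, Rab3b from -0.0147 to 0.2522, Pclo from -0.1196 to 0.0537, Erc1 from -0.098 to 0.0465, Erc2 from -0.046 to 0.2626, Ppfia1 from -0.0289 to 0.0974, Ppfia2 from -0.103 to 0.1225, Ppfia3 from -0.0955 to 0.0108, Ppfia4 from -0.1439 to 0.0219, Napa from -0.0236 to 0.116 and Napb from -0.0132 to 0.194. Ratio differences ranged for Ppfia2/Ppfia3 from -0.0064 to 0.1606, Napa/Napb from -0.1232 to 0.0681, Vamp1/Vamp2 from -0.2754 to 0.0268 and Syn1/Syn2 from -0.0216 to 0.1289. The cause of these changes was not tested. No paired analysis was possible because each mouse number occurs once, in 1 group only.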
